A study of Homo sapiens with 5 samples.

Results

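AP-1 is a family of dimeric transcription factors built from FOS and JUN proteins, which pair through a leucine zipper and bind DNA through a basic region. JUN proteins can pair with each other, whereas FOS proteins need a JUN partner. Many of these genes are immediate early genes, whose mRNA rises within minutes when growth factor receptors signal through the MAP kinases and then falls again. FOSL1 and FOSL2 are longer-lived members that lack the strong activation domains of FOS and FOSB. EGR1 is a zinc finger factor of the same immediate early class, and MAFF is a small MAF protein, a basic leucine zipper factor without an activation domain.

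The mRNA of 9 genes was compared between gefitinib-resistant and parental lung adenocarcinoma cells. The genes were FOS, FOSB, FOSL1, FOSL2, JUN, JUNB, JUND, EGR1 and MAFF, each taken by its symbol from a table of 37181 entries, and where a symbol had more than 1 entry the one with the highest mean was used. HCC827 is a human lung adenocarcinoma cell line with an EGFR exon 19 deletion, whose state in the resistant cells was not examined here. HCC827/GR cells are gefitinib-resistant cells obtained from it with stepwise increases of gefitinib over more than 6 months, and here comprise replicates 1, 2 and 3. Replicates 2 and 3 represent the gefitinib-sensitive parental cells. The resistant line is a single derived line, whether the libraries came from separate cultures is not stated, and p-values therefore measure only the spread between these libraries. Whether gefitinib was present at harvest is not stated either.

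Values are FPKM, fragment numbers scaled for transcript length and library size, so levels can be compared between genes per length, but the depth of the libraries is unknown. Values by library are given for the resistant cells in the order of replicates 1, 2 and 3 and for the parental cells in the order of replicates 2 and 3. Between 23.9% and 26.4% of entries were listed at 0 in a library. Epithelial markers were present in both groups, with KRT18 at 218.8 to 277.6 FPKM in HCC827/GR cells and 425.0 and 550.0 FPKM in HCC827 cells, and EPCAM at 7.32 to 10.8 and at 86.9 and 72.6 FPKM. The lung lineage factor NKX2-1 stood at 0.415 to 0.963 FPKM and at 4.599 and 4.003 FPKM, while SFTPB was below 0.14 FPKM in every library. The leukocyte marker PTPRC did not exceed 0.0228 FPKM, and of the fibroblast markers COL1A2 and DCN did not exceed 0.0620 FPKM, whereas COL1A1 stood at 0.860, 0.748 and 0.505 FPKM in the resistant libraries and 0.733 and 0.391 FPKM in the parental ones. PECAM1, an endothelial marker, has 10 entries in the table. The entry with the highest mean had 4.34 and 3.32 FPKM in parental cells and was listed at 0 in every resistant library, and another had 2.90 and 2.30 FPKM in parental cells and 0.517 to 0.627 FPKM in resistant ones.

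Upstream of these genes lie short recognition sites through which AP-1, CREB-type and serum response factors are known to act, and the sites found in the members' own promoters are shown because these genes are themselves known targets of such factors. RefSeq windows on GRCh38.p14 of 300 bases, 250 before and 50 after the start, were at hand for 8 of the 9 genes, the exception being FOSL1. Both strands were searched, and capitals mark the match within 30 bases printed 5′ to 3′ on the strand of the gene.

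JUN, far site, chr1:58784215-58784244, minus strand: gcagcggagcaTTACCTCAtcccgtgagcc
JUN, near site, chr1:58784096-58784125, minus strand: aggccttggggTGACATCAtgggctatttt
JUND, chr19:18281804-18281833, minus strand: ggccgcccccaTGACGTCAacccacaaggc
MAFF, chr22:38201929-38201958, plus strand: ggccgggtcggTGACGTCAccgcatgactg
EGR1, far CArG box, chr5:138465363-138465392, plus strand: ggccggtcctgCCATATTAGGgcttcctgc
EGR1, near CArG box, chr5:138465385-138465414, plus strand: cttcctgcttcCCATATATGGccatgtacg

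The JUN sites are the AP-1-like elements through which JUN is known to drive its own gene, and they begin 186 and 67 bases before the RefSeq start. Among all 35116 windows, TTACCTCA or its complement occurred in 0.715% and TGACATCA in 2.61%. The cAMP response element TGACGTCA occurred in JUND and MAFF and in 1.85% of all windows. The CArG box, the binding site of serum response factor, occurred in EGR1 and in 1.29% of all windows. The plain AP-1 element, TGACTCA or TGAGTCA, was found only in FOSL2 among the members, just after the start, and in 4.95% of all windows. No member window held GCGTGGGCG or GCGGGGGCG, the EGR1 sites searched for, which 5.77% of windows did. No matched site overlapped another, although the printed stretches of the EGR1 boxes do. The JUN and MAFF sites fall within exons of longer GENCODE transcripts. Sequence outside the windows was not searched, so further sites of a member may lie beyond them. A match is a description of the sequence and not evidence of binding in these cells.

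JUN, the founding AP-1 subunit and a possible partner of FOS proteins, rose in HCC827/GR cells. It was the only member that passed the test. JUN had 29.4, 31.2 and 35.0 FPKM in the resistant libraries and 12.6 and 15.9 FPKM in the parental ones. Every resistant library was therefore above both parental libraries, and the highest parental value was well short of the lowest resistant one. The mean was 31.9 ± 2.84 FPKM (SD, n = 3 libraries) against 14.3 ± 2.37 FPKM (SD, n = 2), a ratio of 2.23. The log2 difference on the log2(FPKM + 1) scale was 1.11 (standard error 0.14, 95% interval 0.74 to 1.48), with an adjusted p of 0.0164 from limma with Benjamini-Hochberg adjustment over the 16189 entries whose mean reached 0.5 FPKM. By size of difference JUN ranked 1121 among these entries, and 96.9% of entries had a lower difference.

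The size of the JUN difference varied little and its call varied more. Leaving out any single library kept the log2 difference between 0.95 and 1.27, but the adjusted p rose above 0.05 without HCC827/GR replicate 1 (0.0573), 2 (0.0606) or 3 (0.0509) and without HCC827 replicate 2 (0.0712), and it was 0.0452 without HCC827 replicate 3. JUN lies on chromosome 1 of GRCh38 from 58780788 to 58784327 on the minus strand and has 1 exon. Of 101 protein-coding entries with a single exon and a mean of at least 1 FPKM, 70 (69.3%) were listed at 0 in at least 1 library, compared with 0.35% of 8656 entries with more exons. JUN was above 0 in all 5 libraries.

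**Figure D1:**
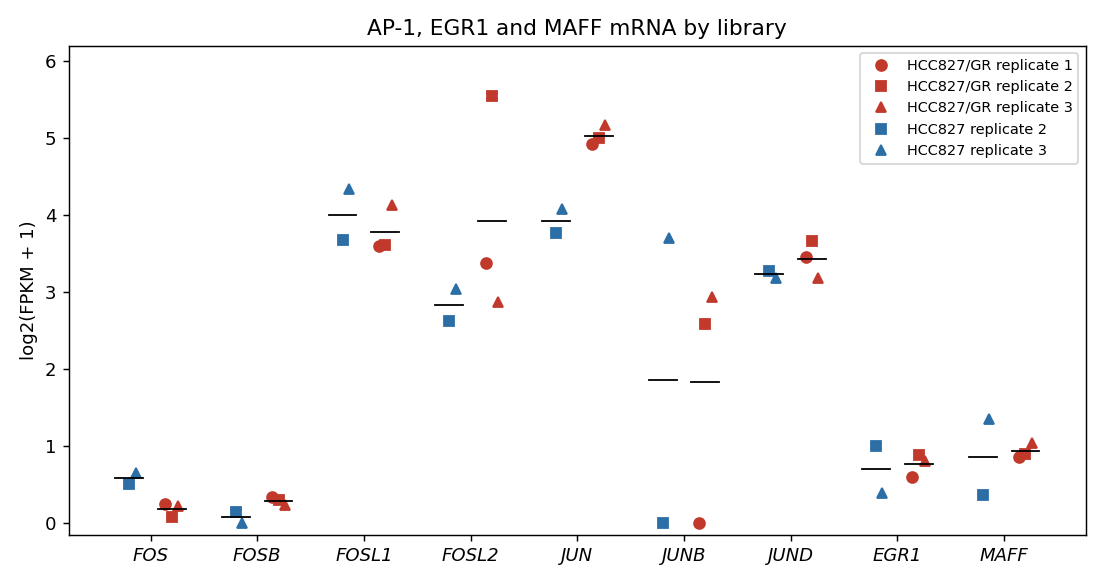
Each point is log2(FPKM + 1) of a gene in 1 library, with HCC827 in blue, HCC827/GR in red, marker shape for the replicate number and a bar at the group mean. JUN is the tested gene whose groups separate, with 29.4 to 35.0 FPKM against 12.6 and 15.9 FPKM, while FOSL2 in HCC827/GR replicate 2 and the 0 values of JUNB stand apart.

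JUND and JUNB, the other JUN proteins, did not pass the test. JUND, which is known for steady expression and weaker growth-promoting activity than JUN, had 10.0, 11.7 and 8.10 FPKM in the resistant libraries and 8.70 and 8.13 FPKM in the parental ones. The groups overlapped, with the lowest of all 5 values in a resistant library. The log2 difference was 0.20 (95% interval -0.23 to 0.63, adjusted p = 0.495 from limma). JUNB, which can oppose JUN at shared targets, gave 0, 5.00 and 6.64 FPKM in the resistant libraries and 0 and 12.1 FPKM in the parental ones. Both groups thus held a value of 0 and a clearly positive value, and the 95% interval of the difference ran from -3.78 to 3.75. JUNB overlaps HOOK2, a protein-coding gene on the opposite strand, for which no entry was found under that symbol. JUNB also has a single exon, on chromosome 19 from 12791496 to 12793315, so that a 0 may be a failed estimate. When values of 0 were treated as missing, its log2 difference was -0.95 (adjusted p = 0.102), on 1 parental library.

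The ratio of JUN to JUND within a library, which does not depend on scaling between libraries, was 2.93, 2.68 and 4.32 in the resistant libraries and 1.45 and 1.96 in the parental ones. The lowest resistant ratio was above the highest parental one (two-sided exact permutation test on the log2 ratio, p = 0.1, the lowest value that 3 libraries against 2 allow). JUN was thus higher relative to JUND as well as in FPKM in each resistant library, although both comparisons rest on the same JUN values.

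FOSL1 and FOSL2 carried nearly all FOS family mRNA in these cells. FOSL1, which encodes FRA1 and is a known effector of MAP kinase signalling in carcinoma cells, had 11.1, 11.3 and 16.6 FPKM in the resistant libraries and 11.8 and 19.2 FPKM in the parental ones. Both groups spanned a similar range and overlapped. The log2 difference was -0.22 (95% interval -0.95 to 0.50, adjusted p = 0.668 from limma), and it was 0.11 without HCC827 replicate 3. The gene lies on chromosome 11 from 65892049 to 65900573, and GENCODE also lists a pseudogene, FOSL1P1, with which reads could have been shared.

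FOSL2, which encodes FRA2, is listed as 2 entries. The entry with the higher mean holds the 4 Ensembl transcripts and 1 assembled transcript, and had 9.37, 45.8 and 6.29 FPKM in the resistant libraries and 5.15 and 7.23 FPKM in the parental ones. HCC827/GR replicate 2 stood far above the other libraries, and HCC827/GR replicate 3 fell between the parental values. The log2 difference of 1.10 (95% interval -1.12 to 3.32, adjusted p = 0.473) fell to 0.29 without HCC827/GR replicate 2. The second entry is a single assembled transcript with no Ensembl identifier, and it had 5.49, 4.63 and 3.997 FPKM against 1.34 and 0.990 FPKM in the same order of libraries. Here the groups did not overlap and the log2 difference was 1.39 (standard error 0.16, 95% interval 0.99 to 1.80, adjusted p = 0.0122 from limma). Its adjusted p was above 0.05 without HCC827/GR replicate 2 (0.0501), HCC827 replicate 2 (0.0624) or HCC827 replicate 3 (0.0717). The position of this entry is not given in the table, so whether it is part of the FOSL2 mRNA could not be settled, and the entry was looked at after the table had been seen. With both entries summed, the log2 difference of FOSL2 was 1.33 (adjusted p = 0.284).

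**Figure D2:**
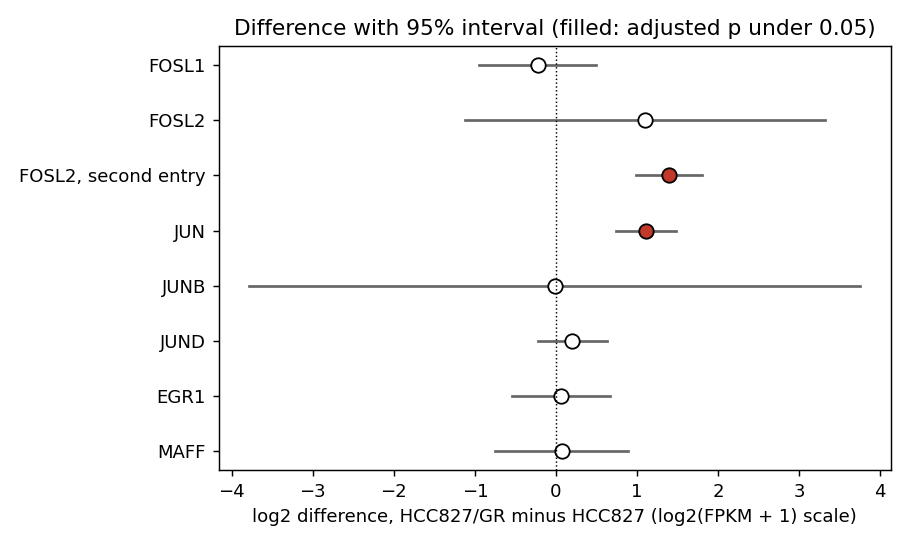
Points are log2 differences of HCC827/GR minus HCC827 on the log2(FPKM + 1) scale with 95% intervals from limma, filled where the adjusted p is under 0.05. JUN (1.11) and the second FOSL2 entry (1.39) lie away from 0 with narrow intervals, whereas the intervals of JUNB and of the main FOSL2 entry are the widest.

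FOS and FOSB, the classical growth factor-induced subunits, were close to the lower end of the scale and their means were below 0.5 FPKM, so they were not among the 7 members tested. FOS had 0.183, 0.0529 and 0.171 FPKM in the resistant libraries and 0.424 and 0.573 FPKM in the parental ones. Every resistant library was below both parental libraries (two-sided exact permutation test, p = 0.1, the lowest possible value). FOSB had 0.270, 0.228 and 0.175 FPKM in the resistant libraries and 0.107 and 0.00444 FPKM in the parental ones. FOSB thus lay the other way, with every resistant library above both parental libraries (two-sided exact permutation test, p = 0.1). In a fit without the filter on low values, the log2 differences were -0.40 for FOS (adjusted p = 0.131) and 0.21 for FOSB (adjusted p = 0.198), so neither passed. FOSB overlaps ERCC1, a DNA repair gene on the opposite strand with 3.51 to 5.24 FPKM. Strand use in the authors' estimation is not stated.

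EGR1 and MAFF were also low and did not pass the test. EGR1, a direct target of ERK signalling through serum response factor, had 0.517, 0.852 and 0.757 FPKM in the resistant libraries and 1.01 and 0.315 FPKM in the parental ones. The parental libraries held both the highest and the lowest value. The log2 difference was 0.07 (95% interval -0.54 to 0.67, adjusted p = 0.886 from limma). MAFF, which pairs with other basic leucine zipper factors, had 0.806, 0.857 and 1.06 FPKM in the resistant libraries and 0.292 and 1.55 FPKM in the parental ones. Its parental values again enclosed the resistant ones, and the log2 difference was 0.07 (95% interval -0.75 to 0.89, adjusted p = 0.915). MAFF overlaps PLA2G6, a phospholipase gene on the opposite strand with 0.675 to 1.37 FPKM.

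Of the 7 members tested, 1 (JUN) was called higher and none lower by limma at an adjusted p under 0.05, and the same count was reached at an unadjusted p under 0.05, where 27.2% of all entries were called (13.4% higher and 13.8% lower). The study's own cut-offs were a fold of at least 2 or at most 0.5 with an unadjusted p under 0.05 from Ballgown. They were applied here to limma's unadjusted p and to folds on the log2(FPKM + 1) scale. JUN was again the only member called, where 6.94% of all entries were. Over all entries tested, 11.0% were called in either direction, 5.26% higher and 5.71% lower, so the members' share of 1 in 7 is close to the background at the adjusted threshold and below it at the unadjusted one. The median log2 difference of the 7 was 0.07, against 0.00 over all entries tested. The groups did not overlap for JUN, FOS and FOSB, of which FOS and FOSB were not tested, and over the entries tested 46.3% had groups that did not overlap.

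The 7 FOS and JUN genes together reached 60.4, 105.2 and 72.9 summed FPKM in the resistant libraries and 38.7 and 63.2 summed FPKM in the parental ones. These sums, with FOSL2 taken by its main entry alone, overlapped between the groups. The second FOSL2 entry had 5.49 FPKM in HCC827/GR replicate 1 and 0.990 FPKM in HCC827 replicate 3. With it added, the sums would not overlap, and the shares below leave it out. JUN took 48.7%, 29.7% and 48.0% of the sum in the resistant libraries and 32.5% and 25.2% in the parental ones, with the low resistant share in the library of the high FOSL2 value. FOSL1 took 18.4%, 10.7% and 22.7% in the resistant libraries and 30.3% and 30.4% in the parental ones. FOS and FOSB together did not reach 2% in any library. In the parental cells JUN and FOSL1 stood at a similar level, with a ratio of JUN to FOSL1 of 1.07 and 0.830 in replicates 2 and 3. In the resistant cells the ratio was 2.65, 2.77 and 2.11 in replicates 1, 2 and 3, above both parental values (two-sided exact permutation test on the log2 ratio, p = 0.1, the lowest possible value). The ratio of FOSL2 to FOSL1 was 0.844, 4.07 and 0.380 in the resistant libraries and 0.438 and 0.376 in the parental ones, and that of JUND to FOSL1 was 0.904, 1.03 and 0.489 against 0.740 and 0.423. Both of these overlapped between the groups, with FOSL2 taken by its main entry alone (exact permutation test, p = 0.4 each). With the second FOSL2 entry added, the ratio of FOSL2 to FOSL1 would not overlap, and that ratio was not tested. Over the 4 ratios computed, the Benjamini-Hochberg adjusted p was 0.2 for both ratios with JUN and 0.4 for the other two. Both genes were well expressed, JUN above 94.4% and FOSL1 above 88.6% of all entries tested by mean FPKM, whereas EGR1 was above 10.5% and MAFF above 19.2%.

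**Figure D3:**
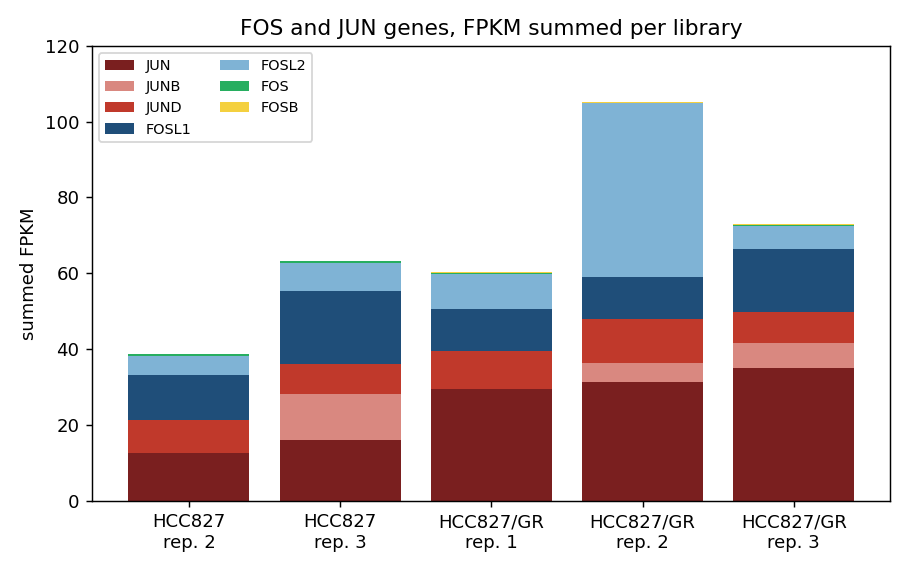
Bars show FPKM summed over FOS, FOSB, FOSL1, FOSL2 (main entry), JUN, JUNB and JUND in each library, with a colour for each gene. JUN is the largest part in HCC827/GR replicates 1 and 3, FOSL2 in HCC827/GR replicate 2, and FOS and FOSB are barely visible.

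The members differed in how well the libraries of a group matched. The SD of JUN within groups was 0.16 on the log2(FPKM + 1) scale, larger than that of 53.1% of the entries of similar mean level (within 0.5 on that scale). For JUND the SD was 0.20, larger than 62.9% of such entries. JUNB with 2.002 and FOSL2 with 1.18 exceeded 99.6% and 98.6% of entries of similar level. FOSL1 with 0.37 exceeded 84.2%, and MAFF, with a 5.30-fold range between the parental libraries, exceeded 71.0%.

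Among 21 other basic leucine zipper genes that can pair with AP-1 or MAF proteins or belong to the MAF family, 13 were tested. Of these, 3 rose and 0 fell, with 4 higher and 2 lower at an unadjusted p under 0.05 (27.2% over all entries), and the median log2 difference was -0.09. MAF, a large MAF factor with an activation domain, had 2.76, 2.84 and 2.03 FPKM in the resistant libraries against 0 and 0.110 FPKM in the parental ones (log2 difference 1.74, adjusted p = 0.00855). CREB5, a CREB-type factor that pairs with JUN, had 2.60, 2.12 and 3.36 FPKM in the resistant libraries against 0.317 and 0.246 FPKM (log2 difference 1.51, adjusted p = 0.0125). NFE2L3, a cap'n'collar factor that pairs with small MAF proteins, had 7.09, 5.74 and 6.24 FPKM against 2.72 and 2.58 FPKM (log2 difference 1.01, adjusted p = 0.0124). Each of these had no overlap between groups. Their adjusted p rose above 0.05 when a library was left out, for MAF without HCC827 replicate 2 (0.0577), for NFE2L3 without HCC827 replicate 2 or 3 (0.0720 and 0.0717), and for CREB5 without those (0.0802 and 0.0781) or HCC827/GR replicate 1 (0.0572). NFE2L3 has 3 entries, of which the values above are those of the one with the highest mean, and with the entries summed its log2 difference was 0.66 (adjusted p = 0.0763). The small MAF gene MAFK had 6.25 to 8.09 FPKM against 4.61 and 3.61 FPKM (adjusted p = 0.0550), and ATF3, an immediate early partner of JUN, had 0.511 to 0.637 FPKM against 1.47 and 1.23 FPKM (adjusted p = 0.0576). MAFK and ATF3 were picked with their values known. NFE2L2 was not analysed here.

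Among 23 other immediate early genes, EGR family members and their NAB corepressors, 13 were tested, 2 rose and 0 fell, with 4 higher and 2 lower at an unadjusted p under 0.05 (27.2% over all entries). The median log2 difference was 0.17. DUSP1, a phosphatase that inactivates MAP kinases, had 9.53, 9.55 and 9.50 FPKM in the resistant libraries against 2.33 and 2.97 FPKM (log2 difference 1.53, adjusted p = 0.00521). CYR61, a secreted matricellular protein also known as CCN1, had 128.2, 165.1 and 164.9 FPKM against 61.8 and 74.9 FPKM (log2 difference 1.14, adjusted p = 0.0229). DUSP1 passed the test whichever library was left out, whereas CYR61 did not without HCC827/GR replicate 2 (0.0749) or 3 (0.0684) or HCC827 replicate 2 (0.116) or 3 (0.0780), all as adjusted p. EGR2, EGR3 and EGR4 were at or below 0.0654 FPKM in every library, and NR4A1, NR4A2 and NR4A3, nuclear receptors of the early response, at or below 0.461 FPKM. The corepressors NAB1 and NAB2, which hold EGR1 in check, had log2 differences of -0.24 (adjusted p = 0.567) and -0.22 (adjusted p = 0.351).

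Of 23 upstream genes, which are the MAP kinases and their activators, RSK and MSK kinases, serum response factor with its cofactors, and the JUN turnover genes FBXW7 and GSK3B, 21 were tested. The call was 0 higher and 1 lower, with 2 higher and 4 lower at an unadjusted p under 0.05 and a median log2 difference of -0.03. The 6 of 21 past the unadjusted threshold are close to the 27.2% over all entries. The exception was ELK3, a ternary complex factor that acts with serum response factor, which fell from 25.3 and 23.4 FPKM in HCC827 cells to 12.6, 9.81 and 11.6 FPKM in HCC827/GR cells (log2 difference -1.04, adjusted p = 0.0157). Its adjusted p was 0.0530 without HCC827/GR replicate 3, and 0.0917 and 0.0737 without HCC827 replicates 2 and 3. MAPK8, which encodes the JUN kinase JNK1, had, in the highest of its 6 entries, a log2 difference of 0.48 (adjusted p = 0.216), and SRF itself of 0.00 (adjusted p = 0.998). Kinase activity is not measured by these data.

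Among 27 genes known as AP-1 targets, 21 were tested, of which 3 rose, 2 fell and 16 did not pass the test, with a median log2 difference of 0.12. At an unadjusted p under 0.05, which 27.2% of all entries reached, the counts were 8 higher and 6 lower. Of the targets too low to be tested, MMP13, MMP10, IVL and SPRR1B were below both parental libraries in every resistant library. MMP13 had 0.0274, 0.0521 and 0.0326 FPKM in the resistant libraries against 1.23 and 0.646 FPKM. MMP3 and IL11, also not tested, overlapped between the groups. Over the entries tested, 46.3% had groups that did not overlap. The cytokine genes IL6, CXCL8 and LIF rose by 1.77 (adjusted p = 0.0336), 1.54 (adjusted p = 0.0370) and 1.04 (adjusted p = 0.0124) on the log2 scale. The tested targets that fell were FGFBP1 and MMP1. FGFBP1, a carrier of fibroblast growth factors, went from 9.79 and 9.69 FPKM to 0.169, 0.258 and 0.420 FPKM (log2 difference -3.07, adjusted p = 0.00174). MMP1, interstitial collagenase, went from 4.63 and 5.41 FPKM to 1.11, 0.783 and 2.21 FPKM (log2 difference -1.39, adjusted p = 0.0445). FGFBP1 passed whichever library was left out. LIF did not without HCC827/GR replicate 2 (0.0509) or HCC827 replicate 2 (0.0612), and the adjusted p reached 0.158 for IL6, 0.166 for CXCL8 and 0.190 for MMP1, each without an HCC827 library. IL6 passed only without HCC827/GR replicate 2, MMP1 only without HCC827/GR replicate 3, and CXCL8 in none of these 5 fits. These targets therefore moved in both directions. AP-1 is only one of several known regulators of each, and its part in their change was not tested. VIM had 92.9 to 132.7 FPKM against 37.8 and 63.3 FPKM (adjusted p = 0.0700), and PLAU 31.7 to 55.8 FPKM against 75.4 and 93.6 FPKM (adjusted p = 0.0857), both picked with their values known.

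**Figure D4:**
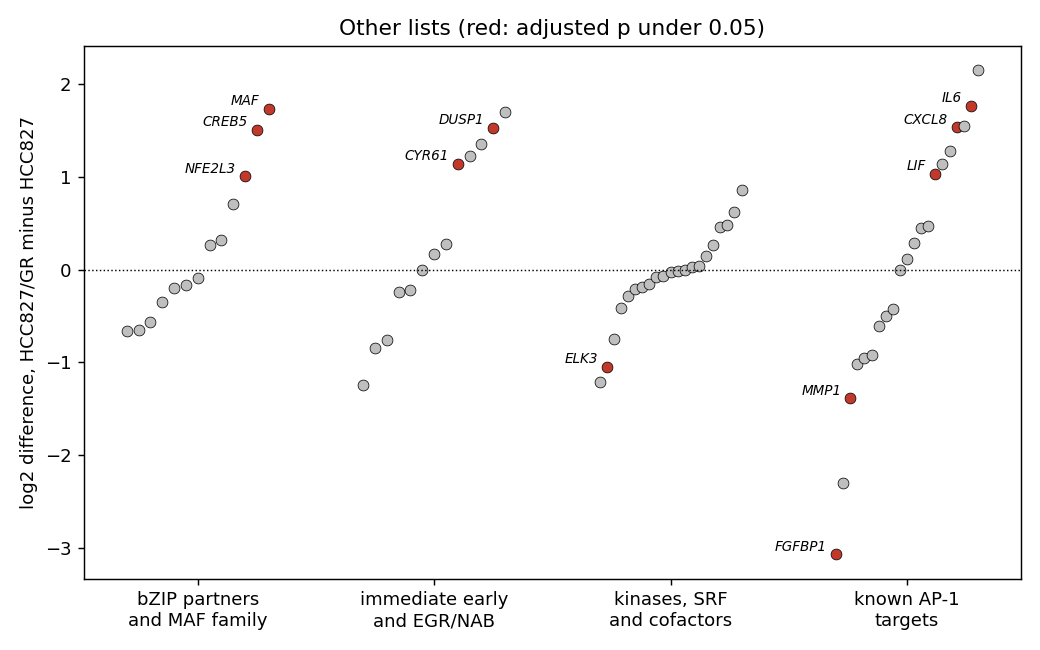
Each point is the log2 difference of HCC827/GR minus HCC827 for a tested gene of the list named on the x axis, ordered by size within a list, in red with its symbol where the adjusted p is under 0.05. FGFBP1 (-3.07) is the lowest point of the target list and IL6 (1.77) the highest red one, and among the upstream genes ELK3 (-1.04) alone is red.

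The share of tested genes called in either direction was 23.1% for the basic leucine zipper list, 15.4% for the immediate early list, 4.76% for the upstream list and 23.8% for the target list, beside 11.0% over all entries. These shares describe the lists, and no test of a list was made.

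The entries whose profile over the 5 libraries lay nearest to that of JUN, which had both the largest absolute difference and the highest mean among the tested members, were SLC5A6, SLC3A2 and RPS27L, with Euclidean distances of 0.08, 0.11 and 0.14 between centred log2(FPKM + 1) values. SLC3A2, the heavy chain of amino acid transporters, had 107.8, 112.7 and 118.1 FPKM in the resistant libraries and 49.0 and 58.7 FPKM in the parental ones. SLC5A6, a vitamin transporter, had 7.59, 7.68 and 8.80 FPKM against 2.94 and 3.71 FPKM. Likeness over 5 libraries is a description only.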

How the data were processed

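The FPKM values of 5 RNA-sequencing libraries (HCC827/GR replicates 1, 2 and 3, HCC827 replicates 2 and 3) were deposited by the authors, who trimmed reads with Cutadapt, mapped them with Bowtie2 and TopHat2, and assembled and estimated expression with StringTie and Ballgown. The submitters' processing notes name the build hg18, whereas all Ensembl transcripts of the 9 genes were found in GENCODE release 29 (GRCh38), from which positions were taken. Tool versions are not given in the sources used here. The deposited sample descriptions speak of a small-RNA library and the paper of an mRNA library. Of 6 FPKM columns, 1 matched no sample and was not used. Depth is unknown, so no counting error is given.

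The main comparison used limma 3.58.1 in R 4.3.3 (trend, two-sided) on log2(FPKM + 1) for 16189 entries whose mean reached 0.5 FPKM, with Benjamini-Hochberg adjustment over all of them. A fold on this scale understates the change of low genes. Named were all members, the called genes of 4 other lists (at most 6 a list, plus any called against the direction of most), and the 3 entries nearest to the most changed and the most abundant member. The members and lists were chosen with earlier results of these data known, and 1 gene of the AP-1 target list is not reported here. Intervals are limma's 95% intervals. The alternatives changed the pseudocount (0.1), the filter (none, or a mean of 1 FPKM), the scaling (median ratios or quantiles), the model (no trend, Ballgown's, the replicate number as a block), and the handling of entries and libraries, with entries of a symbol summed, values of 0 as missing, the ratio of the mean FPKM, and each library left out. Tested on simulated data, limma recovered 165 of 200 genes given a log2 change of 2 among 16189 and called 9 unchanged genes. Python 3.11.15 with numpy 2.4.6, pandas 2.3.3 and matplotlib 3.10.9 was used for annotation and plots.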

Additional observations from a re-analysis of the deposited data

How the results depend on the processing

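JUN kept its direction in all alternatives, with a log2 difference of 0.95 to 1.27 among those with a test, and passed in 9 of 15. Outside the fits without a library it was lost with Ballgown's model (adjusted p = 0.162) and with the replicate number as a block (0.130). The number pairs only replicates 2 and 3. Deviations of same-numbered libraries from their group means had correlations of 0.033 and 0.015 over all entries. The 2 HCC827 libraries deviate from their mean as mirror images, so these values are not separate checks. They cannot show whether the number marks a pairing in the design. Under the block, limma called 0 entries higher and 0 lower over all entries (3545 at an unadjusted p under 0.05), and hence 0 of the members and 0 of each other list. Ballgown's model, which does not share the spread between genes, called 10 higher and 14 lower (3256 at an unadjusted p under 0.05), with 0 members and 0 genes of each other list. At an unadjusted p under 0.05, as the study used, Ballgown's model had 1 member, JUN, with a log2 difference of 1.08. At that threshold 3256 of 16189 entries were also called. With no filter, 504 entries were called higher, among the immediate early genes 1, among the AP-1 targets 1 higher, and among the basic leucine zipper genes 1 lower, which was also 1 lower without the trend, with summed entries and with values of 0 as missing. A pseudocount of 0.1 left 1 target lower. The block and Ballgown's model fit more terms than the main model to the same 5 libraries, which leaves fewer degrees of freedom to estimate the spread. How far this accounts for their lower counts, and the cause of the other shifts, was not tested.

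Without a library, where a lone HCC827 library is assumed to vary like the other group, calls over all entries ran from 202 to 485 higher and from 287 to 477 lower, and members called higher from 0 to 1. Higher calls ran from 0 to 3 for the basic leucine zipper list, from 1 to 3 for the immediate early list and from 0 to 3 for the targets. Lower calls ran from 0 to 1 for the upstream list and from 1 to 2 for the targets. Members that did not pass changed sign in some fits. FOSL1 ran from -0.55 to 0.11, JUNB from -1.87 to 1.84, EGR1 from -0.24 to 0.37 and MAFF from -0.42 to 0.56 without a library. JUNB was also 0.45 with a pseudocount of 0.1 and 0.90 under the block, and MAFF was -0.018 as a ratio of the mean FPKM. FOSL2 and JUND kept their direction and did not pass in any of 15. FOS and FOSB could be fitted only without the filter. The unknown depth limits what can be said of FOS, FOSB, EGR1 and MAFF.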

Other observations

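Libraries of the same cells differed widely in their listed values for many immediate early genes. Of the 13 tested genes of that list, 7 had a within-group SD above that of 90% of entries of similar level, compared with 1 of 13 in the basic leucine zipper list, 4 of 21 in the upstream list, 3 of 21 in the target list and 2 of 7 members. IER3, an early response regulator of survival, had 36.5, 6.44 and 0.798 FPKM in the resistant and 33.0 and 4.99 FPKM in the parental libraries. IER2 reached 3.28 and 3.07 FPKM in replicates 1 and 2 of HCC827/GR cells, against at most 0.0147 FPKM elsewhere. ATF4, the main transcription factor of the integrated stress response, had 11.7, 56.5 and 46.2 FPKM in the resistant libraries and 95.9 and 16.8 FPKM in the parental ones. IER3, IER2 and ATF4 were picked with their values known, and none of them passed the test between the groups (adjusted p = 0.771, 0.301 and 0.864 from limma).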
